A study of Mus musculus with 6 samples.

Results

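The long noncoding RNA genes of brain cells Malat1, Neat1, Meg3, Rian, Mirg, Snhg11 and Miat were followed across RNA sequencing of cells sorted from the mouse olfactory bulb. The study describes the sorted cells as adult-born. The 7 genes were taken by symbol from the table of counts per gene, where all 7 were found among 55573 genes. Malat1, Neat1, Meg3 and Snhg11 reached the minimum of 1 CPM (counts scaled to a common library size) in at least 2 libraries and were among the 12275 genes tested, whereas Rian, Mirg and Miat did not reach it and are described without a test. All mice were male C57BL/6 animals aged 3 months whose rostral migratory stream, the path of new neurons to the bulb, had received a lentivirus of the FUGW type, in which a ubiquitin promoter drives the insert in any transduced cell. The control virus carried the Ca2+ indicator Twitch-2B with a nuclear mCherry, and the other viruses carried Twitch-2B with the potassium channel Kv1.2 (from human cDNA) or Kir2.1 (from mouse cDNA). At 9 days after injection, cells positive for Twitch-2B were sorted, and by the study's account the sort also took adult-born granule cells. The 3 groups, control, Kv1.2 and Kir2.1, had 2 libraries each, and every library pooled cells of 2 mice. The comparisons set libraries labelled with either channel beside control libraries, whose virus also carried the indicator. The counts do not show which of the sequenced cells carried a virus.

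Long noncoding RNAs are long transcripts that encode no known protein. Malat1 is an abundant RNA of nuclear speckles, where splicing factors gather, and Neat1 is the scaffold of paraspeckles, nuclear bodies built on that RNA. Meg3, Rian and Mirg lie on one strand of the imprinted Dlk1-Dio3 domain, are transcribed from the maternal chromosome, and carry small nucleolar RNAs or microRNAs in their introns and exons. Snhg11 hosts a small nucleolar RNA, and Miat, also called Gomafu, is a nuclear RNA of neurons.

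In the GRCm38 annotation of GENCODE, Malat1 occupied chr19:5795690-5802672 and Neat1 chr19:5824708-5845478, both on the minus strand as a single exon block and 22 kb apart. Meg3 lay at chr12:109541001-109571726, Rian 32.2 kb further at chr12:109603940-109661716, and Mirg after another 68 kb at chr12:109729764-109749460, all on the plus strand. Snhg11 lay at chr2:158375638-158386145 on the plus strand and Miat at chr5:112213228-112229395 on the minus strand. GENCODE types Malat1, Neat1, Meg3, Mirg and Miat as lincRNA and Rian as a processed transcript, and types Snhg11 as protein-coding although its name in the count table is that of a host gene. The exons of Meg3, Rian and Mirg shared bases with small RNA genes of their own strand, each with 0 counts in every library. In the whole count table, genes of at least 100 exon bases lying wholly inside a same-strand host with at least 1000 counts were looked up. Of these, 0 of 92 had any count. The small RNA genes of Meg3, Rian and Mirg shared 1 to 97 bases, and genes of fewer than 100 exon bases were not looked up. A count of 0 does not show that these small RNAs were absent.

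Since the study concerns the activity-dependent factor CREB, the start regions were searched for its binding motif, the cAMP response element. The windows, from RefSeq on GRCm38.p6, run from 250 bases before to 50 bases after an annotated start, and 6 of the 7 genes had one. The windows shown are those of Meg3 and Snhg11, the tested genes that were lowest in the libraries labelled Kv1.2, and that of Malat1, the most abundant member. Capitals mark the full element TGACGTCA or its core site TGACG on either strand, and each full element also holds a core site on each strand. Meg3 is read at chr12:109540746-109541045 on the plus strand, Malat1 at chr19:5802623-5802922 on the minus strand and Snhg11 at chr2:158375463-158375762 on the plus strand, 5′ to 3′.
Meg3: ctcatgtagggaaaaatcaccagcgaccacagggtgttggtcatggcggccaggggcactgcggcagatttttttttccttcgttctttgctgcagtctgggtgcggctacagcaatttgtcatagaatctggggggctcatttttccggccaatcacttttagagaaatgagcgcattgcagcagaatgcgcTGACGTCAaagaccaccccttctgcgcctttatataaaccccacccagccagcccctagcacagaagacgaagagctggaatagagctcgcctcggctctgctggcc
Malat1: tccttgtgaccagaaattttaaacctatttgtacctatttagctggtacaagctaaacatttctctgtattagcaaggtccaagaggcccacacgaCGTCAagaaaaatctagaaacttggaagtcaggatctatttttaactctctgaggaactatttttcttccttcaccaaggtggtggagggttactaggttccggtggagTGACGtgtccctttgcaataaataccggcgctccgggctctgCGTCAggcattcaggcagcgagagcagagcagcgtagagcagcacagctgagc
Snhg11: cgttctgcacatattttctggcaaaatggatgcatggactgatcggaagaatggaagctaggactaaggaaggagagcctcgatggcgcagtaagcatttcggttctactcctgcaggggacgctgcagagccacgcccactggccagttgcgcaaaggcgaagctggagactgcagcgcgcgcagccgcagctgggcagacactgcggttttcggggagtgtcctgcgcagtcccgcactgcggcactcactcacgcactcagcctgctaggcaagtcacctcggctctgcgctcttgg
The Meg3 window held 1 full element, from base -57 to base -50 counted from the start. The Malat1 window held 3 core sites, from -154 to -150, from -45 to -41 and from -3 to 2. The windows of Snhg11, Miat, Rian and Mirg and a second window of Meg3 held neither. Of 32851 promoter windows in the table, 588 (1.79%) held the full element and 20.8% the core site. A match is a description of the letters only.

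The libraries held 8871595 to 13632970 counts. Kcna2 and Kcnj2, the mouse genes of the overexpressed channels, did not separate the groups. Kcna2 had 3 and 451 counts in control and 24 and 5 in Kv1.2 libraries, and Kcnj2 had 87 and 89 counts in control and 64 and 312 in Kir2.1 libraries, so these counts do not check the labels, and every direction given here rests on them. Reads of the human Kv1.2 insert need not align to the mouse gene. The sorted cells are labelled neurons. The summed counts of 20 neuronal and neuroblast markers made up 0.114 and 0.218% of the control libraries and 0.0013 to 0.0107% of the channel libraries, in which 4 to 13 of the 20 were at 0. The 12 microglial markers, none at 0 in any library, made up 7.29 and 0.836% of the control and 7.07 to 12.4% of the channel libraries. In every library, the microglial share was above the neuronal share. The 8 astrocyte markers made up 0.0967 and 0.282% of the control and 0.022 to 0.037% of the channel libraries, and the 6 oligodendrocyte markers 0.0252 and 0.0583% against 0.003 to 0.0139%. Over both channel groups, 11 of 16 neuronal, 5 of 7 astrocyte and 2 of 5 oligodendrocyte markers tested were lower at an unadjusted p under 0.05. Among all genes tested, 10.5% were lower. Of the 12 microglial markers, 0 were lower and 1 was higher, beside 350 of all 12275 genes higher. The neuronal, astrocyte and oligodendrocyte sums were lower in every channel library than in either control library, as was Snhg11 below. The part of these sums in the levels of Meg3 and Snhg11 was not tested. Mitochondrially encoded RNA took 10.9 and 22.9% of the control and 1.48 to 1.89% of the channel libraries. In such bulk samples, fewer cells of a type and less RNA per cell cannot be told apart.

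The members spanned levels from among the most abundant RNAs of the libraries to almost none. Malat1 was at 6599 to 11169 CPM and ranked between the 5th and the 19th most abundant gene of a library, and it held 44.5 to 62.0% of all counts of lincRNA genes. Per kb of gene length, the mean over the 6 libraries was 1242 CPM for Malat1, 3.23 for Snhg11, 1.42 for Neat1, 1.14 for Meg3, 0.371 for Miat, 0.0935 for Rian and 0.0137 for Mirg. The order below Malat1 was not the same in all libraries, since Snhg11 came next in both control libraries and Neat1 in all 4 channel libraries. Values per kb use the deposited lengths and take coverage as even along a gene. Within Malat1, a stretch of 453 of 6983 bases was counted at 71.4 to 73.5% of the Malat1 count, as given below. For Rian, the deposited length was 31981 bases, beside 18234 exon bases in GENCODE. The order between genes is therefore approximate.

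**Figure D1:**
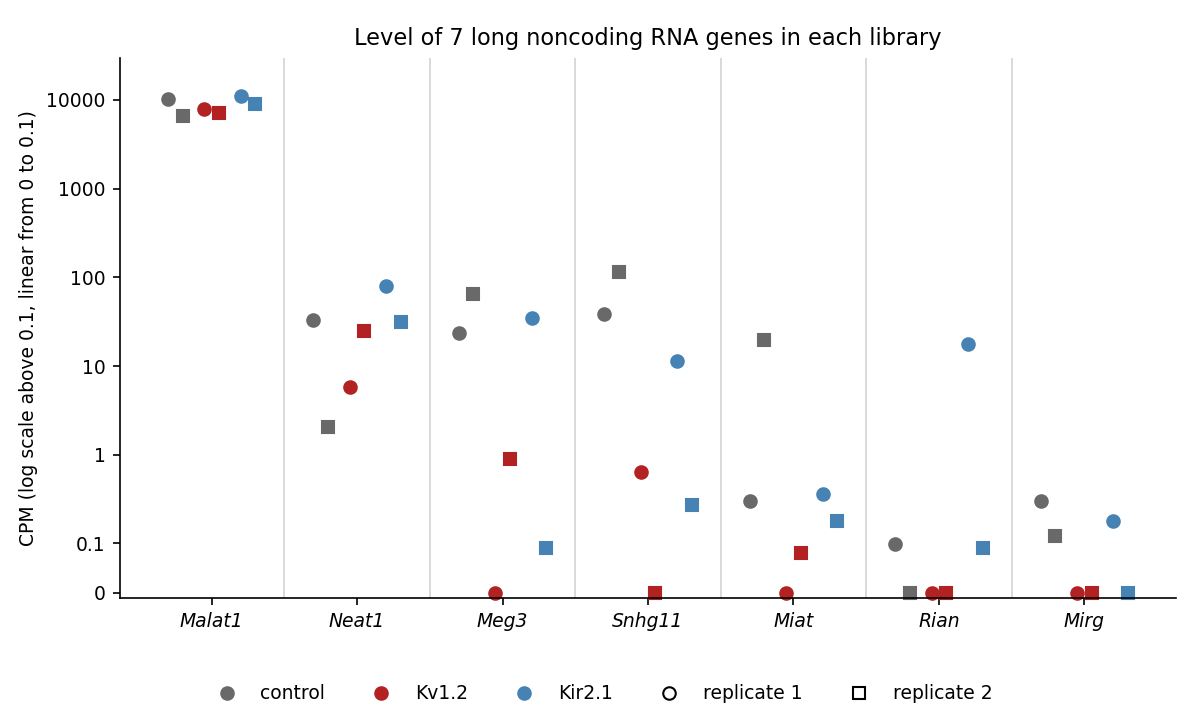
CPM of each of the 7 genes in each library on a log axis that turns linear below 0.1, with colours for the groups and circles and squares for replicates 1 and 2. Malat1 lay between 6599 and 11169 CPM in all 6 libraries, whereas Meg3 and Snhg11 fell to 0 in 1 Kv1.2 library each and Rian stood out in Kir2.1 replicate 1 alone.

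Malat1 showed no detectable difference between the groups. It had 10266 and 6599 CPM in control, 7975 and 7119 CPM in Kv1.2 and 11169 and 8919 CPM in Kir2.1 libraries. Both Kv1.2 libraries lay between the control values, the highest Kir2.1 library lay above them, and the largest level was 1.69 times the smallest. The log2 fold change was -0.16 (standard error 0.523) for Kv1.2 against control, with an adjusted p = 0.971, and 0.25 (0.524) for Kir2.1, with an adjusted p = 0.937, by edgeR's quasi-likelihood test. Leaving out a control library changed the sign of each value, to 0.09 for Kv1.2 and -0.09 for Kir2.1. Both Kir2.1 libraries lay above both Kv1.2 libraries, as did 21.5% of all genes tested, and the log2 fold change between these groups was 0.41 (0.524), with an adjusted p = 1 by the same test.

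A gene of unknown protein potential, Gm37376, lies on the opposite strand wholly inside the Malat1 exon. It is 453 bases long, of the 6983 of Malat1, and it was counted at 71.4 to 73.5% of the Malat1 count in every library. It had 7459 and 4709 CPM in control, 5760 and 5134 CPM in Kv1.2 and 7983 and 6556 CPM in Kir2.1 libraries, the same order of libraries as Malat1. Its log2 fold changes of -0.16 (standard error 0.518) and 0.26 (0.518) for Kv1.2 and Kir2.1 were close to those of Malat1. Genes of at least 100 exon bases lying wholly inside a host gene with at least 1000 counts were compared by strand. On the strand of the host 0 of 92 had any count, against 66 of 85 (77.6%) on the opposite strand. The library protocol does not mark strand, and reads of Malat1 and of Gm37376 cannot be told apart.

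Neat1 showed no difference between the groups that passed the test. It had 33.0 and 2.04 CPM in control, 5.77 and 24.8 CPM in Kv1.2 and 79.9 and 31.0 CPM in Kir2.1 libraries. Control replicate 2 was lowest and Kir2.1 replicate 1 highest, 39.3-fold apart. The 3 groups overlapped except that both Kir2.1 libraries lay above both Kv1.2 libraries, as for 21.5% of all genes tested. The log2 fold change was -0.19 (standard error 1.67) for Kv1.2, 1.66 (1.71) for Kir2.1 and 1.86 (1.72) between them, with adjusted p = 0.991, 0.813 and 0.938 by edgeR's quasi-likelihood test. Without control replicate 1 the Kv1.2 value was 2.81 and the Kir2.1 value 4.66, and without control replicate 2 they were -1.19 and 0.69. Neat1 reads were 0.0308% of the Malat1 count in control replicate 2 and 0.0723 to 0.715% in the other 5 libraries.

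The proteins that work beside these nuclear RNAs were counted next. Of 12 paraspeckle proteins, all tested, 0 were lower at an unadjusted p under 0.05 in Kv1.2, where 8.81% of all genes were, and Nudt21, a subunit of the cleavage factor that sets poly(A) sites, was the 1 lower gene in Kir2.1, which is 8.33% of the list beside 6.15% of all genes. Nudt21 had 39.2 and 10.4 CPM in control and 32.8 and 20.4 CPM in Kv1.2 libraries but 0.181 and 0.0906 CPM in the Kir2.1 libraries, which lay below all others. Of 19 nuclear speckle and splicing proteins tested, out of 20, none was called at that p against the control in either direction and 0 passed the adjusted p. Srsf5 and Pnn, both splicing proteins of speckles, had the smallest p over both channel groups, 0.0807 and 0.106, with adjusted p = 0.436 and 0.471 by edgeR's quasi-likelihood test. Both were above the control in 4 of 4 channel libraries, as were 3 of the 19 in all and 1046 of the 12275 genes tested. Srsf5 had 135 and 26.2 CPM in the control against 193 to 314 CPM in the channel libraries.

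Meg3 was almost absent from both Kv1.2 libraries. It had 23.3 and 65.0 CPM (234 and 543 counts) in control, 0 and 0.895 CPM (0 and 11 counts) in Kv1.2 and 35.0 and 0.0906 CPM (386 and 1 counts) in Kir2.1 libraries. Both Kv1.2 libraries lay below both controls, while the Kir2.1 libraries split, with replicate 1 between the control values and replicate 2 near 0. Summed over a group and scaled to library size, the control held 95.1-fold more Meg3 than Kv1.2 and 2.41-fold more than Kir2.1. The log2 fold change was -6.59 (standard error 3.23) for Kv1.2, with an unadjusted p of 0.0801 and an adjusted p = 0.454, and -1.33 (2.57) for Kir2.1, with an adjusted p = 0.931, both by edgeR's quasi-likelihood test. The Kir2.1 value rested on 1 library, since without Kir2.1 replicate 1 it was -8.78. The 2 channel groups differed by 5.26 (3.04), with an adjusted p = 0.765, and by -2.17 without that library. Without Kv1.2 replicate 2, whose 11 counts were all that the group held, the Kv1.2 value was -11.88. DESeq2 placed the Kv1.2 difference of Meg3 past the threshold, with an adjusted p = 0.0343.

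Rian and Mirg, downstream of Meg3 on the same strand, were close to absent in most libraries. Rian, the host of a cluster of small nucleolar RNAs, had 1 and 0 counts in control, 0 and 0 in Kv1.2 and 196 and 1 in Kir2.1 libraries, so that 99.0% of its counts came from Kir2.1 replicate 1. The Kir2.1 to control ratio of Rian was 164 (29.1 to 6515, 95% interval of the counts). It covers counting error only and rests on that single library. Mirg, the host of a microRNA cluster, had 3 and 1 counts in control, 0 and 0 in Kv1.2 and 2 and 0 in Kir2.1 libraries. With 4 counts in the control group and 0 in Kv1.2, no fold difference is read for Mirg. The library with Rian also held 386 counts of Meg3 and, of the markers of border macrophages, 0.119% of its counts against at most 0.0057% in the others. The part of those cells in these values was not tested.

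The paternal protein-coding genes of the domain were scarcely counted. Dlk1, a Notch-like transmembrane protein, had 3 and 0 counts in control, 0 and 0 in Kv1.2 and 7 and 0 in Kir2.1 libraries. Rtl1, derived from a retrotransposon, had 3 and 0, 1 and 1, and 9 and 0 counts in the same order, and Dio3, which inactivates thyroid hormone, had 0 to 2 counts in every library. Of the 6 genes of the domain on the list, Meg3 alone was tested. A further gene between Rian and Mirg on their strand, Gm37899, named after its values were seen, had 385 and 45 counts in control, 0 and 3 in Kv1.2 and 1 and 0 in Kir2.1 libraries, with a log2 fold change over both channel groups of -7.97 (standard error 2.42) and an adjusted p = 0.223. The gene antisense to the end of Meg3, Gm26906, had 22 and 102, 0 and 0, and 25 and 0 counts, and its 1228 exon bases all lie within the Meg3 exons, so that reads of Gm26906 and of Meg3 cannot be told apart.

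Snhg11 was lower in all 4 channel libraries than in both control libraries. It had 39.0 and 113.7 CPM (392 and 950 counts) in control, 0.641 and 0 CPM (8 and 0 counts) in Kv1.2 and 11.3 and 0.272 CPM (125 and 3 counts) in Kir2.1 libraries. Kir2.1 replicate 1, in which Meg3 was at the control level, was again the highest channel library. The control held 226-fold more Snhg11 than Kv1.2 and 12.6-fold more than Kir2.1. The log2 fold change was -7.84 (standard error 2.85) for Kv1.2, with an unadjusted p of 0.0281 and an adjusted p = 0.394, and -3.72 (2.35) for Kir2.1, with an unadjusted p of 0.157 and an adjusted p = 0.632, by edgeR's quasi-likelihood test. Over both channel groups it was -5.78 (1.93), with an unadjusted p of 0.0196 and an adjusted p = 0.257, and lower in 4 of 4 libraries. Without Kv1.2 replicate 1 the Kv1.2 value was -12.66. The unadjusted p for Kv1.2 was 0.118 without control replicate 2 and 0.0749 without Kv1.2 replicate 2, that over both groups was 0.125 without control replicate 2, and the Kir2.1 value was -8.10 without Kir2.1 replicate 1. The difference between Kir2.1 and Kv1.2 was 4.13 (2.42), with an adjusted p = 0.769, and was -0.21 without Kir2.1 replicate 1. DESeq2 gave Snhg11 an adjusted p = 0.00133 for Kv1.2 and 0.00708 over both channel groups.

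**Figure D2:**
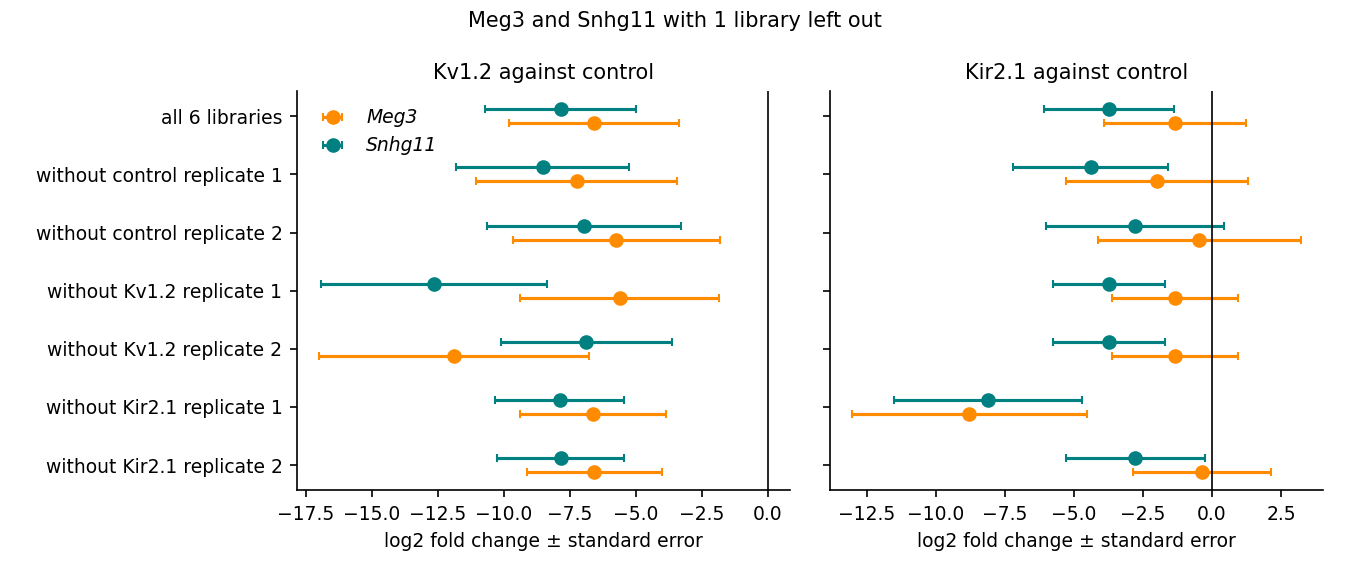
Log2 fold change with its standard error for Meg3 and Snhg11 against the control, from all 6 libraries and with each library left out in turn. Leaving out Kir2.1 replicate 1 moved Meg3 from -1.33 to -8.78 and Snhg11 from -3.72 to -8.10 in the Kir2.1 comparison, while all values shown lay below 0.

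Miat was counted almost only in a single library. It had 3 and 165 counts in control, 0 and 1 in Kv1.2 and 4 and 2 in Kir2.1 libraries, so that control replicate 2 held 94.3% of its counts. Control replicate 1 lay below Kir2.1 replicate 1. The control to Kv1.2 ratio was 226 (40.0 to 8987, 95% interval of the counts), which covers counting error only and rests on control replicate 2. Of the Miat exon bases, 30.4% were shared with other genes, chiefly a gene of the opposite strand with 8 counts in all. Control replicate 2 also had the highest share of neuronal markers and the highest mitochondrial share, and their part in the Miat counts was not tested.

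Across the 4 tested members, 1 was called lower at an unadjusted p under 0.05 in Kv1.2, Snhg11, where 8.81% of all genes were called lower. None was called in Kir2.1, where 6.15% of all genes were called lower, and 1 was called over both channel groups, again Snhg11, against 10.5% of all genes. At an adjusted p under 0.05, 0 members passed in Kv1.2, in Kir2.1 and between the channel groups, where 0% of all genes passed, and 0 passed over both channel groups, where 0.0244% of all genes did. DESeq2 passed 2 members in Kv1.2, where it passed 10.6% of all genes, and 1 over both groups, where it passed 10% of all genes. Among the tested members, groups that did not overlap and were lower were found for Meg3 and Snhg11 in Kv1.2, as for 24.9% of all genes, for Snhg11 in Kir2.1, as for 22.5%, and for Snhg11 over both channel groups, as for 13.8%. Both Kir2.1 libraries lay above both Kv1.2 libraries for 2 of the 4, Malat1 and Neat1, as for 21.5% of all genes. The median log2 fold change of the 4 was -3.39 in Kv1.2 and -0.54 in Kir2.1, beside -0.12 and 0.04 over all genes tested. Without Kir2.1 replicate 1 the Kir2.1 median was -4.01. The comparisons with the control share the same 2 control libraries.

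**Figure D3:**
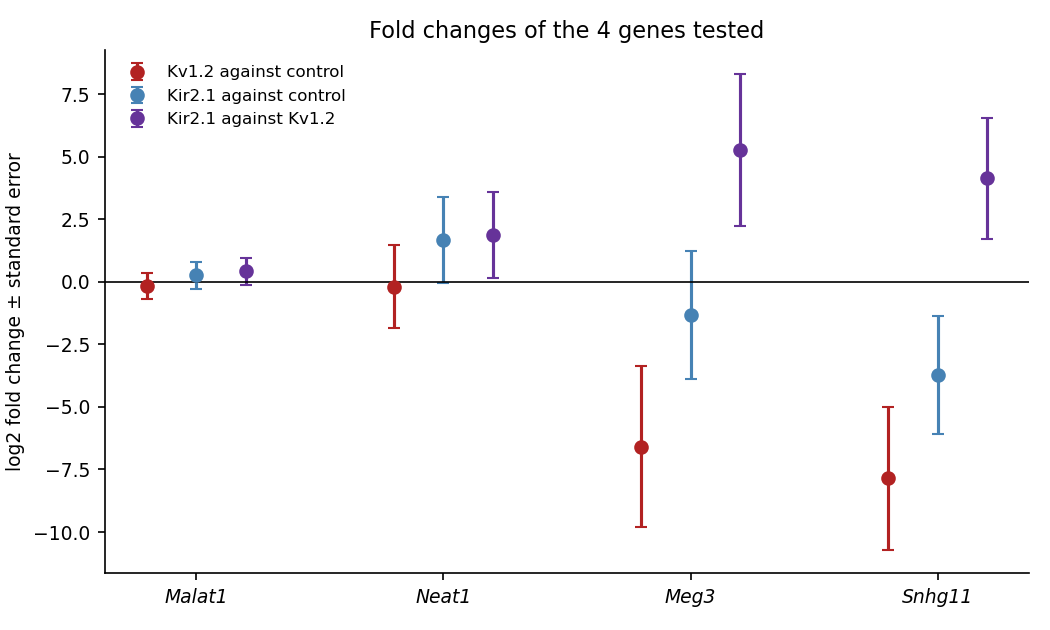
Log2 fold change of Malat1, Neat1, Meg3 and Snhg11 with its standard error for Kv1.2 and Kir2.1 against control and for Kir2.1 against Kv1.2. Malat1 stayed within 0.41 of 0, while Snhg11 reached -7.84 and Meg3 -6.59 in Kv1.2.

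To compare members without library scaling, their ratios were taken within each library. The log2 ratio of Snhg11 to Malat1 was -8.03 and -5.86 in control, -13.2 and -15.2 in Kv1.2 and -9.92 and -14.3 in Kir2.1 libraries. It was below the control in 4 of 4 channel libraries, by 6.22 on average (exact two-sided permutation p = 0.0667, the smallest that 2 against 4 libraries allow, 0.156 after adjustment over 7 ratios computed, 4 of them to the neuronal marker mean). The ratio of Meg3 to Malat1 was lower by 5.13 on average (exact permutation p = 0.2), with Kir2.1 replicate 1 at -8.31 between the controls at -8.77 and -6.66. In the Kv1.2 libraries and Kir2.1 replicate 2, Snhg11 had 8, 0 and 3 counts and Meg3 had 0, 11 and 1. The ratios there depend on the prior count of 2 used for the log, and so do both average differences, whose size is not read. The ratio of Neat1 to Malat1 differed by 1.45 (exact permutation p = 0.333). Malat1 itself varied by 1.69-fold, and the Snhg11 ratio ordered the 6 libraries as the Snhg11 CPM did. That ratio is therefore not support separate from the CPM.

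The members were also set beside the neuronal markers of the same library, as a description. The mean log2 CPM of the 20 markers was 3.22 and 5.63 in control, -1.67 and -0.48 in Kv1.2 and -0.06 and -0.88 in Kir2.1 libraries, so that no channel library reached the control. Malat1 did not follow that mean, and Meg3 and Snhg11 were highest in control replicate 2, where the mean was highest. Kir2.1 replicate 1 stood apart, with Meg3 at 35.0 CPM and a marker mean of -0.06. With 4 to 13 of the markers at 0 and Meg3 and Snhg11 at 0 to 11 counts in 3 of the 4 channel libraries, ratios of the members to the marker mean rest on the prior count there and are not read.

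**Figure D4:**
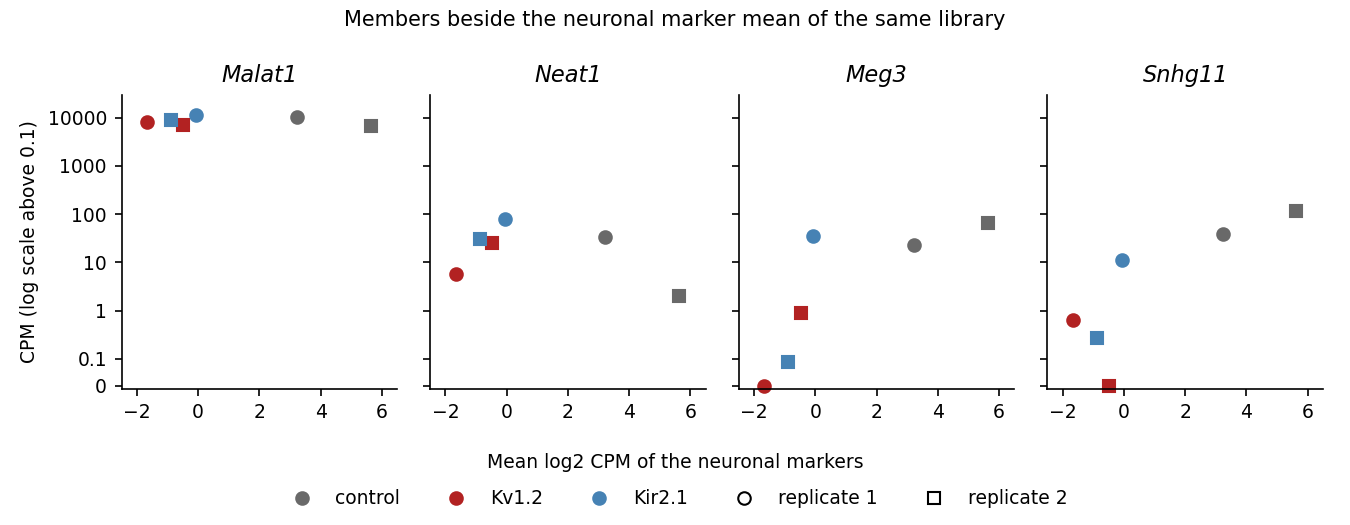
CPM of the 4 tested members on a log axis against the mean log2 CPM of 20 neuronal markers in the same library, with 1 point per library. Meg3 and Snhg11 were at 23.3 CPM or more in both control libraries, which lay at 3.22 and 5.63 on the marker axis, and Malat1 varied by 1.69-fold over that axis.

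Lists of long noncoding RNAs, chosen with earlier results of these data known, were set beside the members. The list of host genes includes the members Snhg11, which was tested, and Rian, which was not. Of 18 small nucleolar RNA host genes, 15 were tested, and 3 were lower at an unadjusted p under 0.05 in Kv1.2 (Snhg18, Snhg12 and Snhg11), 1 in Kir2.1 (Snhg18) and 3 over both channel groups, with 0 higher and 0 at an adjusted p. Over all genes tested, 8.81%, 6.15% and 10.5% were lower in these comparisons, and the 1 of 15 in Kir2.1 is 6.67%. Snhg18 had 24.4 and 25.0 CPM in control and 0 to 0.0906 CPM in channel libraries, and its adjusted p over both groups was 0.201. Snhg12 had 6.67 and 45.5 CPM in control, 0 and 0 in Kv1.2 and 10.1 and 21.0 CPM in Kir2.1 libraries, where it overlapped the control. The median log2 fold change of the 15 genes was -1.01 in Kv1.2 and -1.24 in Kir2.1.

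Of 26 other long noncoding RNAs, 16 were tested. At an unadjusted p under 0.05, 3 (18.75%) were lower in Kv1.2, 3 (18.75%) in Kir2.1 and 4 (25%) over both groups. Among all genes tested, 8.81%, 6.15% and 10.5% were lower in these comparisons. Pantr1, transcribed beside the neural factor gene Pou3f3, had 76.3 and 333 CPM in control and 0 to 0.362 CPM in channel libraries, with a log2 fold change over both groups of -10.43 (standard error 1.37) and an adjusted p = 0.0683. Dlx6os1, also called Evf2 and transcribed in the Dlx5/6 locus of GABAergic forebrain neurons, had 49.9 and 16.9 CPM in control and 0.0801 to 0.163 CPM in channel libraries, with an adjusted p = 0.185. For 2900097C17Rik the adjusted p was 0.238, and the control levels were 28.9 and 87.3 CPM, both above 19.8 CPM in Kv1.2 replicate 1 and at most 0.488 CPM in the other channel libraries. The remaining gene called over both groups was 1700020I14Rik, at -2.28 (0.895), and Mir22hg was the 1 gene called higher, in Kir2.1, with an unadjusted p of 0.0244 and an adjusted p = 0.521. The 304 lincRNA genes of GENCODE that were tested include the members Malat1, Neat1 and Meg3. Among all 304, 25 were lower and 12 higher at an unadjusted p under 0.05 in Kv1.2, and 20 and 6 in Kir2.1, with medians of 0.01 and -0.15. The lower shares of 8.22 and 6.58% were close to the 8.81% and 6.15% of all genes, and the shares called higher, 3.95 and 1.97%, stood beside 3.23% and 3.25%.

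The genes whose levels followed each member most closely over the 6 libraries were sought among 7352 tested genes with a mean of at least 10 CPM, by Pearson's r of log2 CPM. With 6 libraries from the same 3 groups, r is a description of these points. For Malat1 they were Gm37376 (0.999), which shares its locus, Zfp36l1 (0.999), an RNA-binding protein that promotes mRNA decay, and 4933434E20Rik (0.991). Zfp36l1 had 137 and 21.7 CPM in control, 46.2 and 29.1 CPM in Kv1.2 and 181 and 81.3 CPM in Kir2.1 libraries. For Neat1 they were Degs2 (0.995), a sphingolipid enzyme, Evl (0.985), a regulator of actin filaments, and Far1 (0.985), a fatty alcohol enzyme of peroxisomes.

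For Meg3 the closest genes were Fez1 (0.989), a kinesin adaptor of axonal transport, Setd7 (0.985), a lysine methyltransferase, and Kat7 (0.984), a histone acetyltransferase. Fez1 had 66.2 and 65.8 CPM in control, 0 and 0.57 CPM in Kv1.2 and 43.3 and 0.0906 CPM in Kir2.1 libraries, the split of the Kir2.1 libraries seen for Meg3. For Snhg11 they were Pigp (0.990), of the synthesis of glycosylphosphatidylinositol anchors, Kif1a (0.984), a motor of synaptic vesicle precursors, and Camk2b (0.984), a neuronal calmodulin-dependent kinase. Kif1a had 70.0 and 102 CPM in control, 0.24 and 0 CPM in Kv1.2 and 23.3 and 0 CPM in Kir2.1 libraries, the order of high and low libraries seen for Snhg11. With a prior count of 0.5 in place of 2, the closest gene of each member was unchanged, while 2 of the 3 named genes of Neat1 and of Meg3 and 1 of the 3 of Snhg11 remained.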

How the data were processed

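RNA of sorted Twitch-2B-positive cells was amplified as cDNA by the authors with an oligo-dT kit (SMART-Seq v4) and sequenced in 6 libraries. According to the methods and the submitters' processing notes, reads were aligned to GRCm38 with STAR 2.7.0f, filtered with SAMtools 1.9 to remove multi-mapping reads, and counted with Subread 1.6.4. The sources used here do not give the strand setting of the counter. The authors deposited whole-number counts per gene for 55573 genes, without normalization, which were the input of every test, and gene lengths, which gave the values per kb. Deposited normalized tables, and tables of the authors' own comparisons with fold changes and p-values, were not used.

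The 12275 genes that reached 1 CPM in 2 or more libraries were fitted in one model of all 6 libraries with edgeR 4.0.16 (quasi-likelihood test, TMM scaling) in R 4.3.3, with Benjamini-Hochberg adjustment over all of them and a threshold of 0.05. CPM use the TMM-scaled library size. Standard errors were derived from each fold change and its F statistic. Log2 ratios used a prior count of 2 and exact two-sided permutation tests over libraries. Intervals are at 95% and cover counting error only. Totals of 8871595 to 13632970 counts per library set the precision. Labels gave groups and replicate numbers, and libraries are pools of different mice.

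All 7 members are named. Of each list up to 3 genes with the smallest p over both channel groups were named, and for each tested member the 3 genes closest by r. The members and lists were chosen with earlier results of these data known. The listed genes Snhg4, Snhg10 and Rmst were not matched by symbol or synonym. The steps were tested on simulated data. Alternatives were DESeq2 1.42.0, the likelihood ratio test, scaling by RLE or by library size only, no count minimum, filterByExpr, only the compared groups, a replicate block, other prior counts and each library left out.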

Additional observations from a re-analysis of the deposited data

Results flagged for a closer look

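Malat1 was singled out because both Kv1.2 libraries lay below and both Kir2.1 libraries above the mean log2 level of the control. The log2 fold change of Kir2.1 against Kv1.2 was 0.41 (standard error 0.524), higher in 2 of 2 libraries, and it was tested, with an adjusted p = 1 by edgeR's quasi-likelihood test.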

How the results depend on the processing

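Over all alternatives, 200 of 218 fold changes of the 4 tested members kept their direction and side of the threshold, 14 changed sign and 4 moved past the threshold. DESeq2 passed 2 members in Kv1.2 and 1 over both channel groups at an adjusted p, and called 2 at an unadjusted p in Kv1.2, over both groups and in Kir2.1 against Kv1.2. Over all genes, DESeq2 passed 10.6 and 10%, and called 19.9, 20 and 13.7% at an unadjusted p. The likelihood ratio test passed 1 member over both groups (Snhg11, adjusted p = 0.0226) and called 2 at an unadjusted p there and in Kv1.2, and over all genes it passed 8.94% there and called 21 and 20.3%. With no count minimum, or when the fit held only the groups compared, 2 members were called at an unadjusted p in Kv1.2, where 8.37 and 13.5% of all genes were. The causes were not tested.

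Between libraries of the same replicate number, deviations from the group means had correlations of 0.0131, -0.0401 and -0.0028 over 12275 genes. With 2 libraries per group, these values cannot show whether the libraries shared a batch, and no pairing was assumed. With the replicate block, Neat1 in Kv1.2 was 0.72, and all other fold changes kept their sign. Malat1 over both groups was -0.0188 with DESeq2 and with RLE scaling, and in Kv1.2 it was 0.0422 with no count minimum.

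With each library left out in turn, Malat1 ranged from -0.53 to 0.0913 in Kv1.2, from -0.0933 to 0.51 in Kir2.1 and from -0.31 to 0.30 over both groups, and Neat1 from -1.60 to 2.81 in Kv1.2, from 0.69 to 4.66 in Kir2.1 and from -0.25 to 3.74 over both groups. In Kir2.1 against Kv1.2, Meg3 ranged from -2.17 to 10.53 and Snhg11 from -0.21 to 8.94, with both lowest without Kir2.1 replicate 1. Members called at an unadjusted p ranged from 0 to 2 in Kv1.2 and over both groups. The median of the 4 ranged from -4.01 to 0.0187 in Kir2.1, from -3.87 to -1.67 over both groups and from 0.0222 to 3.71 in Kir2.1 against Kv1.2. The ratio of Neat1 to Malat1 ranged from -0.18 to 3.08 and that of Meg3 to the neuronal marker mean from -1.26 to 0.81.

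Rian, Mirg and Miat, at 198, 6 and 175 counts in all, were left out of the test by the minimum of 1 CPM in 2 libraries.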
